A study of Rattus norvegicus with 16 samples.

Results

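The 41 genes described here encode the enzymes that build and sulfate the glycosaminoglycan chains of proteoglycans, together with the suppliers of activated sulfate. They were chosen by symbol, and every one was found among the 23285 genes of the deposited count table. By the step they serve, 15 belong to the heparan sulfate branch, 16 to the chondroitin and dermatan sulfate branch and 8 to steps that both branches share, and 2 sulfate galactose or N-acetylglucosamine, mainly in keratan sulfate. RNA was sequenced from 4 tendons of Sprague Dawley rats: the forepaw flexor, supraspinatus, Achilles and patellar tendon, with 4 libraries of total RNA each, and the series was designed to set each tendon against each of the others. The labels name the strain and the tissue and give no age, sex, treatment or genotype. They do not say that the 4 libraries of a tendon came from separate animals, so p-values measure the spread between these libraries.

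A glycosaminoglycan chain starts with a short linker of xylose, galactose and glucuronic acid on a serine of the core protein. The next sugar decides its kind: N-acetylglucosamine opens a heparan sulfate chain, N-acetylgalactosamine a chondroitin sulfate chain, whose glucuronic acid can be epimerised to make dermatan sulfate. Sulfotransferases then place sulfate groups that set which growth factors, morphogens and matrix proteins the chain binds. In tendon, dermatan and chondroitin sulfate chains are carried by decorin, biglycan and the large proteoglycans around collagen fibrils, and heparan sulfate chains by syndecans, glypicans and perlecan at cell surfaces and in basement membranes.

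The promoters of 5 members are shown because their flexor libraries lay apart from all others: above them for Ndst1, Hs2st1, Hs3st1 and Xylt1, and below them for Papss2. The sequences are from RefSeq (assembly GRCr8), 5′ to 3′ on the gene's own strand, 250 bases before to 50 bases after the annotated start. Capitals mark matches to the letters searched: the GC box GGGCGG, the CCAAT box CCAAT, the TATA box TATAAA and the E-box CATCTG, each on both strands.
Ndst1, chr18:56448561-56448860, minus strand: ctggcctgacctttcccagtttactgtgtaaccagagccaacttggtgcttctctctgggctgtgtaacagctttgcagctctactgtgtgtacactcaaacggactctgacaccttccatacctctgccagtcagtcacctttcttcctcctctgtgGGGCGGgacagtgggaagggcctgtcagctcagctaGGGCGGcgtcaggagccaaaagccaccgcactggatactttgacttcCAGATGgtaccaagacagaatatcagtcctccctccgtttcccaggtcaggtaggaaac
Hs2st1, chr2:236302084-236302383, minus strand: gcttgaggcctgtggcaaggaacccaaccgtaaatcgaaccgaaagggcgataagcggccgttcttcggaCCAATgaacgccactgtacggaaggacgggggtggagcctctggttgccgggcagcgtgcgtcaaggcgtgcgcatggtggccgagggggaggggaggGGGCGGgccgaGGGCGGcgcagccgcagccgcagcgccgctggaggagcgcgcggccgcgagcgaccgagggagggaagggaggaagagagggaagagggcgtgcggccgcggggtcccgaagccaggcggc
Hs3st1, chr14:75398723-75399022, plus strand: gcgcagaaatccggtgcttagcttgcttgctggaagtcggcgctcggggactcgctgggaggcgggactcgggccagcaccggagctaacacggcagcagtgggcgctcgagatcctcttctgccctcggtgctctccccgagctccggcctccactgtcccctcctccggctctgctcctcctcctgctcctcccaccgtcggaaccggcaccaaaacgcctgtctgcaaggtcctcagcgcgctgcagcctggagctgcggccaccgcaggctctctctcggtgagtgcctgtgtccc
Xylt1, chr1:181077972-181078271, plus strand: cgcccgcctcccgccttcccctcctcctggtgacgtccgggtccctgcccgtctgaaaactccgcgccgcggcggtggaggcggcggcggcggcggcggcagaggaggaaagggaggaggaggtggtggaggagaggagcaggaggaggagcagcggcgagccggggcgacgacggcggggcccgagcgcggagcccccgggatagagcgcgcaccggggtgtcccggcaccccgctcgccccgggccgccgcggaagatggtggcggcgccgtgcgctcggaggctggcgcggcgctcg
Papss2, chr1:239867463-239867762, plus strand: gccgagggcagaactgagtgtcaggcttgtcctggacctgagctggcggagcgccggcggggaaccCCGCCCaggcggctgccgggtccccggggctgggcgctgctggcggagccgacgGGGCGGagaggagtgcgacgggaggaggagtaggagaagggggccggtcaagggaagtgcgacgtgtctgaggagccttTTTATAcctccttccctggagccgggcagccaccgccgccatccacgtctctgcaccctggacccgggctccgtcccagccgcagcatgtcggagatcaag

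Of the 41 members, 31 have a promoter in the RefSeq table. The GC box was found in 19 of those 31 (61.3%), against 33.1% of all 33469 promoters of the same length. The CCAAT box was found in 10 of 31, against 37.5% of all promoters, the TATA box in 2 of 31, against 14.2%, and the E-box in 5 of 31, against 16.6%. Among the shown promoters, Ndst1 holds 2 GC boxes and 1 E-box, and Hs2st1 holds 2 GC boxes and 1 CCAAT box. Papss2 holds 2 GC boxes and 1 TATA box, while Hs3st1 and Xylt1 hold none of the 4 motifs in this window. Among the 9 promoters of genes that were higher in flexor tendon than in each other tendon, 4 hold a GC box, 3 a CCAAT box, 3 an E-box and 0 a TATA box. These matches describe the letters only.

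Levels are CPM, each count scaled to a library total that TMM had adjusted, and n is 4 libraries per tendon throughout. All differences are on the log2 scale with their SE. They come from 1 quasi-likelihood model of edgeR over all 16 libraries, with p-values adjusted by Benjamini-Hochberg over the 16948 genes tested, and a gene is called at an adjusted p under 0.05. Levels are compared between tendons and not between genes, since gene lengths were not used here. Each library held 63397591 to 102491699 counts, and the floor of 3 counts corresponded to 0.0266 to 0.0485 CPM. Of the 41 members 40 passed the filter on low counts. Ndst2, an N-deacetylase/N-sulfotransferase of heparan sulfate, did not, with 0 to 2 counts in each library. Shares of marker genes are percents of the TMM-adjusted library total and not of raw counts. TMM factors were 0.731 to 0.876 in supraspinatus and 1.01 to 1.16 in the other libraries. Raw shares were thus smaller in supraspinatus and larger elsewhere. Markers of tendon fibroblasts (12 genes, 0 of them at a count of 0) took 3.05 to 4.64% in flexor, 3.91 to 7.59% in supraspinatus, 6.26 to 13.5% in Achilles and 5.30 to 11.03% in patellar libraries. The flexor libraries lay below all Achilles and patellar libraries in this share and overlapped supraspinatus 4, and its part in the differences between tendons was not tested. Markers of skeletal muscle differed most between the tendons. Their 21 measured genes took 4.19% of this total on average in flexor, 18.7% in supraspinatus, 0.679% in Achilles and 1.001% in patellar libraries. They took at least 13.9% in every supraspinatus library and at most 6.48% in any other. Muscle markers thus separated supraspinatus from the other tendons in every library. The design confounds muscle level and supraspinatus tendon. A supraspinatus call lost with the muscle level as a covariate therefore cannot be assigned to either. The flexor libraries (1.74 to 6.48%) also lay above all Achilles libraries (0.0417 to 1.23%). They lay above every patellar library but patellar 1 (3.37%). Muscle level and tendon thus cannot be cleanly told apart in the flexor comparisons either, whether a call was kept or lost.

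**Figure D1:**
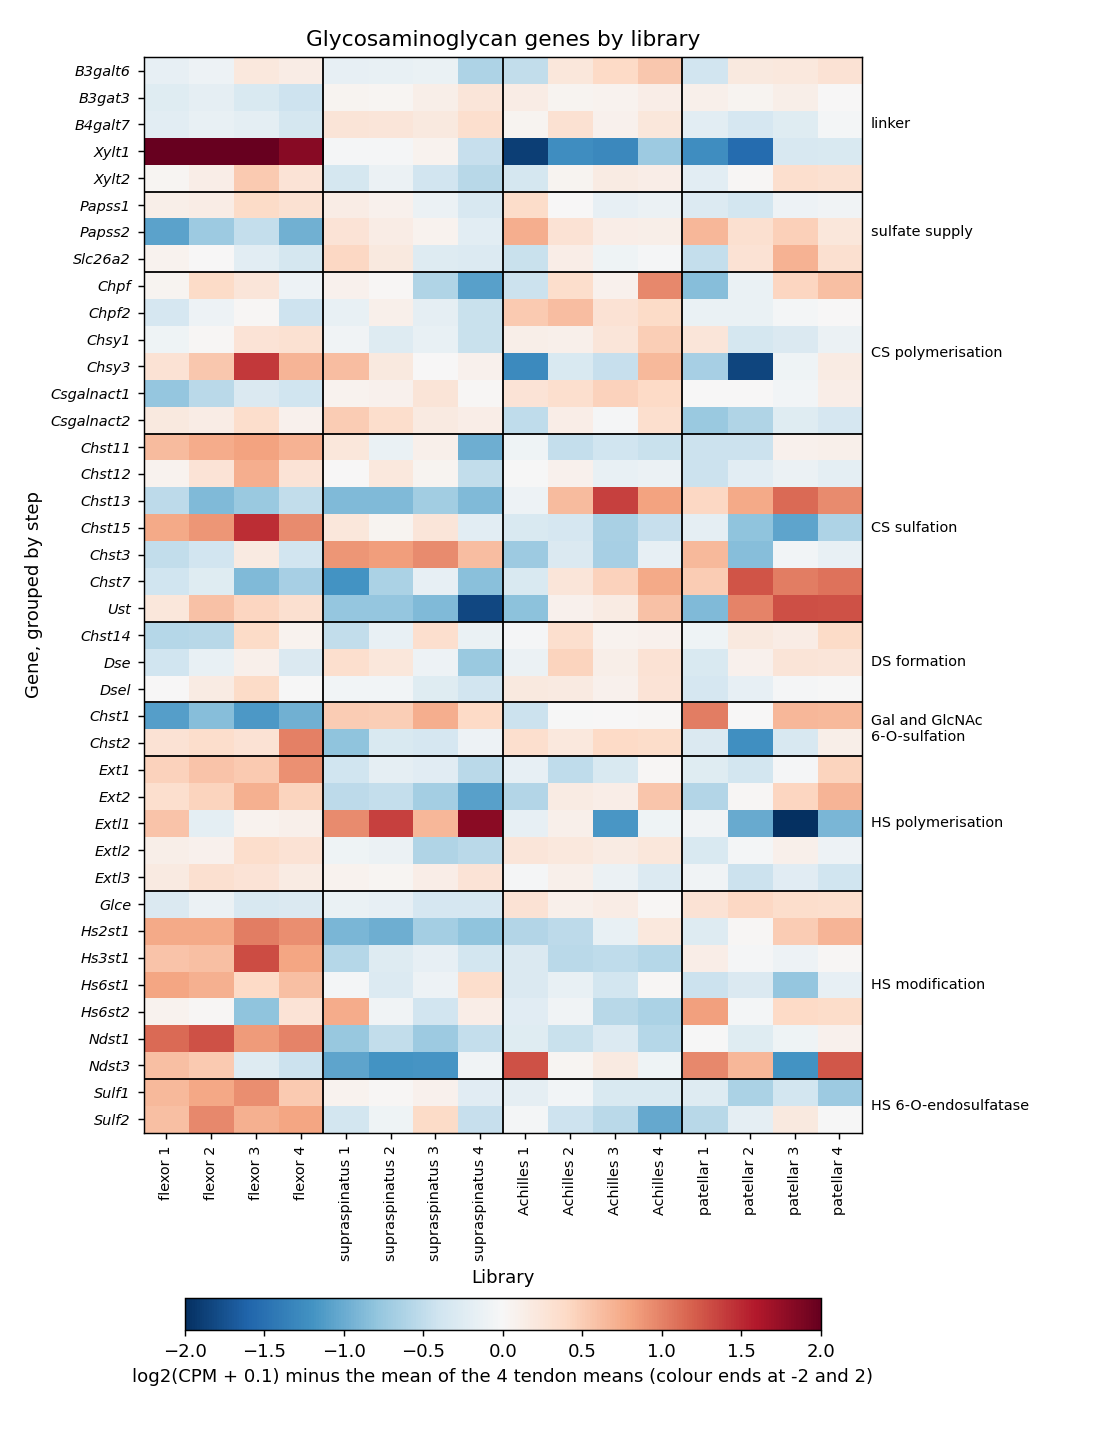
Each row is 1 of the 40 tested members, grouped by step, and each column 1 library; the colour gives log2(CPM + 0.1) minus the mean of the 4 tendon means, from -2 (blue) to 2 (red). The flexor columns are red for most heparan sulfate sulfotransferases, both endosulfatases and Xylt1, and blue for Chst1, Papss2 and Csgalnact1.

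Among the 4 tendons, 32 of 40 members differed (80%), against 75.6% of all genes tested, so that the set as a whole stood near the background. The 8 that did not pass were B3galt6, Chsy3, Chpf, Dse, Chst14, Ndst3, Hs6st2 and Slc26a2. In flexor tendon 11 of 40 members were higher than in each of the other 3 tendons (10.9% of all genes) and 4 were lower than in each (6.6% of all genes). Of the 11, 7 belonged to the 14 tested heparan sulfate members (Ext1, Ndst1, Hs2st1, Hs6st1, Hs3st1, Sulf1 and Sulf2) and 3 to the 16 chondroitin and dermatan sulfate members (Chst11, Chst12 and Chst15), and the other was Xylt1. The 4 lower members were B3gat3, Csgalnact1, Chst1 and Papss2. Without overlap of single libraries, 10 of 40 members lay above all other tendons in flexor (all of the 11 but Chst12, 10.9% of all genes) and the same 4 lay below (6.09% of all genes). In supraspinatus tendon 1 lay above (Extl1, 13.4%) and 1 below (Hs2st1, 5.83%). In Achilles tendon 2 lay above (Chpf2 and Csgalnact1, 1.41%) and 0 below (0.537%), and in patellar tendon 1 above (Glce, 2.69%) and 0 below (2.04%). In bulk tissue, fewer cells of a type and less RNA per cell cannot be told apart. The 3 flexor comparisons share the flexor libraries.

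The linker genes did not move as a group. Xylt1 (ENSRNOG00000056658), 1 of the 2 xylosyltransferases that place the first sugar on the core protein, had the widest span of the members that were above the floor in every library. It was at 18.3, 20.3, 26.7 and 14.6 CPM in the flexor libraries, against 3.96, 3.99, 4.27 and 2.90 CPM in supraspinatus, 1.02, 1.66, 1.60 and 2.39 CPM in Achilles and 1.65, 1.33, 3.22 and 3.27 CPM in patellar libraries. Every flexor library lay above every other library, by more than 3-fold over the highest of them. The log2 fold change was 2.40 ± 0.32 against supraspinatus (adjusted p = 3.39e-05), 3.58 ± 0.33 against Achilles (adjusted p = 1.91e-06) and 3.07 ± 0.33 against patellar tendon (adjusted p = 4.30e-06). Supraspinatus tendon had more Xylt1 than Achilles tendon (1.18 ± 0.31, adjusted p = 0.00545). This call was lost with the muscle marker level as a covariate, at a nearly unchanged 1.15 (adjusted p = 0.208).

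Its paralog Xylt2 spanned far less, with means ± SD of 44.7 ± 6.78 CPM in flexor, 29.5 ± 3.73 in supraspinatus, 37.9 ± 5.91 in Achilles and 41.1 ± 7.12 in patellar libraries. It was higher in flexor than in supraspinatus tendon (0.60 ± 0.15, adjusted p = 0.00482) and did not pass against the other 2. B4galt7 and B3gat3, which act later, went the other way. B4galt7, which adds the first galactose, was called lower in flexor than in supraspinatus (-0.49 ± 0.08) and Achilles tendon (-0.40 ± 0.08). It averaged 32.2 ± 1.87 CPM in flexor, 45.2 ± 1.76 in supraspinatus, 42.6 ± 3.55 in Achilles and 32.8 ± 2.87 in patellar libraries, low in flexor and patellar and high in the other 2. B3gat3, which adds the closing glucuronic acid, averaged 42.8 ± 3.02 CPM in flexor, against 56.6 ± 3.79 in supraspinatus, 55.9 ± 1.81 in Achilles and 54.8 ± 1.84 in patellar libraries. All flexor libraries lay below all others for B3gat3, and the difference was small, at -0.40 ± 0.07, -0.39 ± 0.07 and -0.36 ± 0.07 on the log2 scale. Against supraspinatus the B3gat3 and B4galt7 calls were lost when library totals replaced TMM, at -0.06 and -0.14. B3galt6, which adds the second galactose, ranged over the 4 tendon means between 12.4 and 17.2 CPM and did not pass.

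Among the suppliers of sulfate, Papss2 was lower and Papss1 higher in flexor than in patellar tendon. Both encode PAPS synthases, which make the activated sulfate that every sulfotransferase uses. Papss2 (ENSRNOG00000011068) was at 36.1, 46.2, 54.7 and 39.1 CPM in flexor libraries, against 91.9, 84.3, 80.3 and 66.2 CPM in supraspinatus, 127, 92.8, 83.9 and 82.8 CPM in Achilles and 121, 95.2, 107 and 89.7 CPM in patellar libraries. All flexor libraries lay below all other libraries. The log2 fold change was -0.87 ± 0.16 against supraspinatus (adjusted p = 5.33e-04), -1.13 ± 0.16 against Achilles (adjusted p = 7.57e-05) and -1.23 ± 0.17 against patellar tendon (adjusted p = 3.18e-05). Papss1 averaged 74.2 ± 6.50 CPM in flexor, 61.3 ± 8.89 in supraspinatus, 64.6 ± 11.2 in Achilles and 54.7 ± 5.17 in patellar libraries, and only flexor against patellar passed (0.44 ± 0.13, adjusted p = 0.0111). Slc26a2, the sulfate transporter mutated in human chondrodysplasias, had tendon means between 15.4 and 20.01 CPM and did not pass.

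Chain polymerisation in the heparan sulfate branch was led by Ext1. Ext1 and Ext2 form the copolymerase that lengthens the chain. Ext1 (ENSRNOG00000024886) was at 29.4, 31.7, 30.5 and 40.0 CPM in flexor libraries, against 16.1, 18.7, 18.2 and 14.7 CPM in supraspinatus, 19.0, 14.96, 17.2 and 21.6 CPM in Achilles and 18.0, 16.5, 20.8 and 29.0 CPM in patellar libraries. The lowest flexor library was just above the highest patellar library, and no flexor library overlapped another tendon. Ext1 rose in flexor by 0.96 ± 0.17 against supraspinatus, 0.85 ± 0.17 against Achilles and 0.64 ± 0.17 against patellar tendon (adjusted p = 3.50e-04, 9.17e-04 and 0.00572). For Ext2 (ENSRNOG00000008944) it was supraspinatus tendon that stood apart. Ext2 was at 156, 168, 203 and 167 CPM in flexor, 86.2, 89.0, 77.2 and 58.3 CPM in supraspinatus, 82.2, 138, 135 and 181 CPM in Achilles and 82.4, 126, 167 and 197 CPM in patellar libraries. Achilles 1 and patellar 1 fell within the supraspinatus range while the other Achilles and patellar libraries lay above it. Ext2 was higher in flexor than in supraspinatus tendon (1.16 ± 0.26, adjusted p = 0.00187), and lower in supraspinatus than in Achilles (-0.79 ± 0.26, adjusted p = 0.0187) and patellar tendon (-0.88 ± 0.26, adjusted p = 0.00915). Without Achilles 4 the supraspinatus and Achilles difference was -0.61 (adjusted p = 0.0674). Both calls were lost with the muscle covariate at -0.87 and -0.98 (adjusted p = 0.254 and 0.270).

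The 3 EXT-like genes each had a pattern of their own. Extl1 (ENSRNOG00000016776), an N-acetylglucosamine transferase of chain elongation, was at 16.3, 9.55, 11.55 and 11.8 CPM in flexor, 21.1, 28.3, 17.4 and 38.3 CPM in supraspinatus, 9.73, 11.8, 4.84 and 10.3 CPM in Achilles and 10.4, 5.38, 2.60 and 5.75 CPM in patellar libraries. All supraspinatus libraries lay above all others. Supraspinatus 4 was the highest and had the largest muscle marker share (25.9% of its TMM-adjusted total). Supraspinatus 2 came next and had the smallest share of its tendon (13.9%). The relation across these libraries was not tested. Extl1 was higher in supraspinatus than in Achilles (1.52 ± 0.37, adjusted p = 0.00369) and patellar tendon (2.12 ± 0.38, adjusted p = 3.22e-04), and lower in flexor than in supraspinatus tendon (-1.09 ± 0.37, adjusted p = 0.0245). Flexor against patellar tendon also passed (1.03 ± 0.37, adjusted p = 0.0324). With the muscle marker level as a covariate all 4 Extl1 calls were lost, at 0.37, 0.97, -0.57 and 0.40 in the same order. The flexor and supraspinatus call was also lost without flexor 2 or supraspinatus 4 (adjusted p = 0.0544 and 0.111), and the flexor and patellar call without any of 6 libraries (flexor 1, 3 or 4, or patellar 2, 3 or 4). Extl2, which acts on the linker, averaged 14.7 ± 1.36 CPM in flexor, 10.2 ± 1.95 in supraspinatus, 14.7 ± 0.309 in Achilles and 11.999 ± 1.39 in patellar libraries, and was lower in supraspinatus than in Achilles tendon (-0.53 ± 0.13, adjusted p = 0.00333). That call was lost with the muscle covariate at -0.28 (adjusted p = 0.457). Extl3, which adds the first N-acetylglucosamine, was in order 79.6 ± 4.27, 74.4 ± 5.56, 64.4 ± 6.78 and 55.8 ± 6.596 CPM in the same tendons, and was higher in flexor than in patellar tendon (0.51 ± 0.10, adjusted p = 5.96e-04). Its call against Achilles tendon (0.30 ± 0.10) was lost without flexor 2, flexor 3, Achilles 3 or Achilles 4, and its call in supraspinatus against patellar tendon (0.41 ± 0.10) turned to -0.0085 with library totals.

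Among the modifying enzymes of heparan sulfate, Ndst1, Hs2st1, Hs6st1 and Hs3st1 were higher in flexor than in each other tendon. Ndst1 (ENSRNOG00000019014), the N-deacetylase/N-sulfotransferase that acts before the other sulfotransferases, was at 51.4, 56.8, 42.5 and 46.5 CPM in flexor libraries. It was at 13.8, 16.7, 14.1 and 16.8 CPM in supraspinatus, 19.9, 17.1, 19.3 and 15.73 CPM in Achilles and 23.2, 19.7, 22.1 and 24.9 CPM in patellar libraries. The lowest flexor library was far above the highest of the other 12. Ndst1 rose in flexor by 1.68 ± 0.12 against supraspinatus, 1.45 ± 0.12 against Achilles and 1.13 ± 0.12 against patellar tendon (adjusted p = 2.14e-07, 5.87e-07 and 3.11e-06), and its test among the 4 tendons gave the smallest p of all members (adjusted p = 1.07e-07). It was lower in supraspinatus than in patellar tendon (-0.55 ± 0.11, adjusted p = 9.75e-04), a call lost with the muscle covariate at -0.50 (adjusted p = 0.167). Ndst3, its paralog of low level, had 31, 27, 12 and 9 counts in flexor, 2, 1, 1 and 9 in supraspinatus, 59, 16, 19 and 13 in Achilles and 33, 22, 1 and 40 in patellar libraries, and did not pass among the 4 tendons. It was called lower in supraspinatus than in Achilles (adjusted p = 0.0361) and patellar tendon (adjusted p = 0.0202), on fitted values that rest on few counts. Ndst3 passed the filter on low counts only through the other tendons. These calls are therefore no result, although they stand in the counts of members called. The Achilles call was lost without supraspinatus 1, 2 or 3 or Achilles 1, the patellar call without supraspinatus 1, 2 or 3 or patellar 4, and both with the muscle covariate (adjusted p = 0.391 and 0.277). Without supraspinatus 4 the fitted values were -3.83 and -4.09, where all libraries gave -2.43 and -2.70, and without Achilles 1 the first was -1.82.

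Hs2st1 (ENSRNOG00000012549), which sulfates the uronic acid, was graded over the tendons. It was at 32.8, 32.9, 39.5 and 37.1 CPM in flexor, 10.2, 9.78, 12.01 and 11.04 CPM in supraspinatus, 12.8, 13.4, 17.4 and 22.4 CPM in Achilles and 16.2, 19.6, 27.5 and 30.9 CPM in patellar libraries. All flexor libraries lay above, and all supraspinatus libraries below, every other library, and Achilles and patellar libraries overlapped. Hs2st1 was higher in flexor than in supraspinatus (1.72 ± 0.21, adjusted p = 1.60e-05), Achilles (1.11 ± 0.20, adjusted p = 4.65e-04) and patellar tendon (0.60 ± 0.20, adjusted p = 0.0223). The patellar call was lost without flexor 3, flexor 4, patellar 1 or patellar 2, with adjusted p from 0.0559 to 0.0776 and log2 values from 0.43 to 0.55. Hs2st1 was lower in supraspinatus than in Achilles (-0.62 ± 0.20, adjusted p = 0.0189) and patellar tendon (-1.13 ± 0.20, adjusted p = 3.02e-04). The Achilles call was lost without Achilles 3 or Achilles 4 (adjusted p = 0.0505 and 0.0738), and both calls with the muscle covariate at -0.59 and -1.09 (adjusted p = 0.336 and 0.115).

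Hs6st1 (ENSRNOG00000014516), the main 6-O-sulfotransferase of heparan sulfate, was at 17.3, 16.3, 13.2 and 15.02 CPM in flexor libraries, against 9.60, 8.17, 9.24 and 12.7 CPM in supraspinatus, 8.09, 8.89, 7.63 and 10.1 CPM in Achilles and 7.37, 8.08, 5.74 and 8.86 CPM in patellar libraries. The flexor libraries lay above all others, closest to supraspinatus 4. Hs6st1 rose in flexor by 0.64 ± 0.16, 0.83 ± 0.16 and 1.04 ± 0.16 against supraspinatus, Achilles and patellar tendon (adjusted p = 0.00423, 6.90e-04 and 1.03e-04). Its call in supraspinatus against patellar tendon (0.40 ± 0.16, adjusted p = 0.0433) was lost without supraspinatus 1, supraspinatus 4, patellar 1 or patellar 3, and the value was -0.028 with library totals and -0.10 with the muscle covariate. Its paralog Hs6st2 had tendon means between 0.630 and 1.15 CPM and did not pass. Hs3st1 (ENSRNOG00000010598), a 3-O-sulfotransferase known for making the antithrombin-binding site, was at 142, 144, 235 and 165 CPM in flexor libraries, against 63.6, 79.1, 84.7 and 73.5 CPM in supraspinatus, 77.4, 65.2, 66.8 and 63.6 CPM in Achilles and 104, 93.7, 88.3 and 96 CPM in patellar libraries. Flexor 3 was the highest, and the other flexor libraries still lay above every library of the other tendons. Hs3st1 rose in flexor by 1.19 ± 0.15, 1.33 ± 0.15 and 0.84 ± 0.15 against supraspinatus, Achilles and patellar tendon (adjusted p = 2.19e-05, 8.46e-06 and 2.73e-04).

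Glce (ENSRNOG00000025372), the epimerase that turns glucuronic into iduronic acid in heparan sulfate, was lower in flexor than in both hindlimb tendons. It was at 69.8, 79.5, 69.0 and 70.5 CPM in flexor, 78.6, 76.2, 68.3 and 68.3 CPM in supraspinatus, 104, 92.3, 95.6 and 87.1 CPM in Achilles and 105, 115, 109 and 108 CPM in patellar libraries. Both forelimb tendons lay below both hindlimb tendons in every library, and every patellar library lay above all others. Glce fell in flexor by 0.39 against Achilles (adjusted p = 9.78e-04) and by 0.60 against patellar tendon (adjusted p = 2.80e-05) on the log2 scale, and flexor against supraspinatus tendon stood at -0.01 ± 0.08 (adjusted p = 0.909). Glce was lower in supraspinatus than in Achilles (-0.38 ± 0.08, adjusted p = 0.00109) and patellar tendon (-0.59 ± 0.08, adjusted p = 2.95e-05), both calls being lost with the muscle covariate at -0.20 and -0.38 (adjusted p = 0.378 and 0.104).

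**Figure D2:**
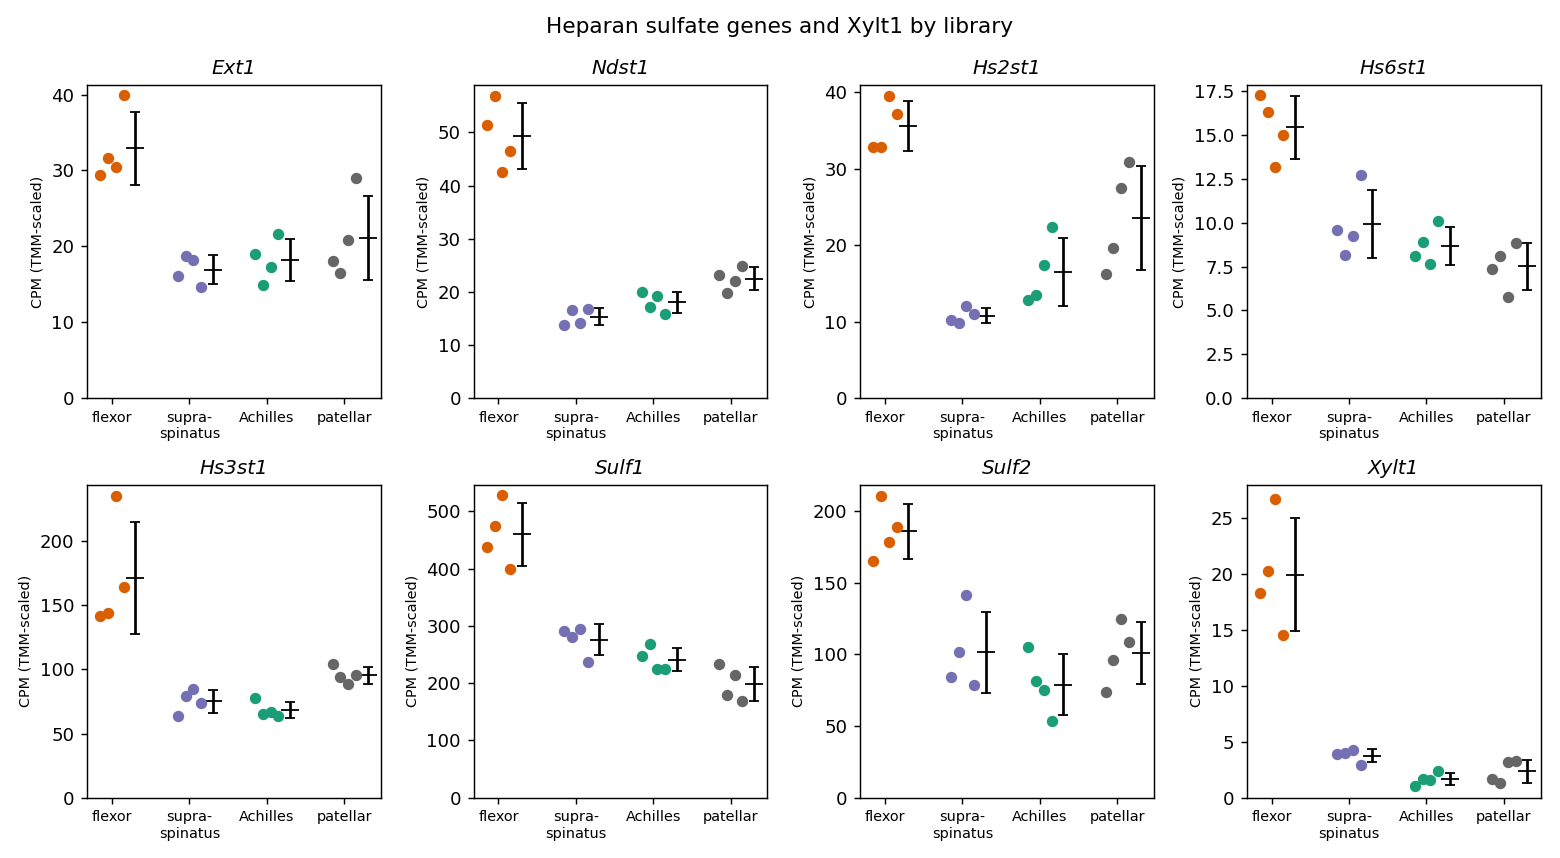
CPM of 7 heparan sulfate members and Xylt1 in each library (points), with the mean and SD of the 4 libraries beside them (bar and whiskers), for flexor, supraspinatus, Achilles and patellar tendon from left to right. In all 8 panels the 4 flexor points lie above every point of the other tendons.

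The endosulfatases Sulf1 and Sulf2, which remove 6-O-sulfate from finished chains outside the cell, were also highest in flexor tendon. Sulf1 (ENSRNOG00000009037) was at 437, 473, 528 and 399.6 CPM in flexor libraries, against 291, 281, 295 and 237 CPM in supraspinatus, 247, 268, 225 and 226 CPM in Achilles and 233, 179.9, 215 and 169 CPM in patellar libraries. The groups of flexor and other libraries did not overlap. Sulf1 rose in flexor by 0.74 ± 0.12, 0.93 ± 0.13 and 1.21 ± 0.13 against supraspinatus, Achilles and patellar tendon (adjusted p = 2.44e-04, 3.98e-05 and 3.85e-06), and it was higher in supraspinatus than in patellar tendon (0.47 ± 0.12, adjusted p = 0.00503), a call lost with library totals at 0.06 and with the muscle covariate at 0.51 (adjusted p = 0.183). Sulf2 (ENSRNOG00000006052) was at 166, 211, 179 and 189 CPM in flexor libraries, against 84.2, 102, 141 and 78.8 CPM in supraspinatus, 106, 81.6, 75.01 and 53.6 CPM in Achilles and 73.8, 96.3, 125 and 109 CPM in patellar libraries. Again no flexor library overlapped the others. Sulf2 rose in flexor by 0.87 ± 0.22, 1.24 ± 0.22 and 0.88 ± 0.22 against supraspinatus, Achilles and patellar tendon (adjusted p = 0.00434, 3.89e-04 and 0.00384). Enzymes that add and enzymes that remove 6-O-sulfate (Hs6st1 on one side, Sulf1 and Sulf2 on the other) were all higher in flexor than in each other tendon at the RNA level.

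With the muscle marker level as a covariate, 5 of the 7 heparan sulfate members remained higher in flexor than in each other tendon (Ext1, Ndst1, Hs6st1, Hs3st1 and Sulf1). Hs2st1 lost the patellar comparison at 0.62 (adjusted p = 0.144) and Sulf2 the supraspinatus comparison at 0.49 (adjusted p = 0.0734). Muscle markers differed between flexor and the other tendons as well, so the covariate does not separate muscle from tendon here. Other markers also moved with the tendons. Adipocyte markers (12 genes, 0 of them at a count of 0) took 0.0587 to 0.111% of the TMM-adjusted total in flexor and 0.0532 to 0.141% in supraspinatus libraries, against 0.359 to 1.34% in Achilles and 0.550 to 1.44% in patellar libraries. Their part in the flexor differences was not tested. Endothelial markers (10 genes, 0 of them at a count of 0) took 0.0461 to 0.0803% in flexor, 0.0699 to 0.142% in supraspinatus, 0.139 to 0.206% in Achilles and 0.169 to 0.282% in patellar libraries, and their part was not tested either. Schwann cell markers (10 genes, 0 of them at a count of 0) went with the flexor level, at 0.251 to 0.402% in flexor libraries, against 0.0772 to 0.0956% in supraspinatus, 0.116 to 0.827% in Achilles and 0.0853 to 0.148% in patellar libraries. Achilles 1 was the one library above the flexor range, and the part of these markers was not tested.

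The chondroitin and dermatan sulfate branch had no tendon of its own in which most members were high. Among the enzymes of chain polymerisation, Csgalnact1 and Csgalnact2, which add the first N-acetylgalactosamine, differed between tendons in different ways. Csgalnact1 (ENSRNOG00000013024) was at 41.5, 48.9, 58.3 and 54.2 CPM in flexor, 74.8, 75.7, 85.3 and 72.6 CPM in supraspinatus, 86.4, 90.1, 98.2 and 93.6 CPM in Achilles and 71.3, 71.9, 68.8 and 78.02 CPM in patellar libraries. All flexor libraries lay below, and all Achilles libraries above, every other library. Csgalnact1 fell in flexor by 0.60, 0.86 and 0.51 against supraspinatus, Achilles and patellar tendon on the log2 scale (adjusted p = 1.63e-04, 9.99e-06 and 5.29e-04), the first being lost with library totals (adjusted p = 0.0702). The smaller difference of supraspinatus against Achilles tendon (-0.26 ± 0.10) was lost without any 1 of 11 libraries, and with the muscle covariate at -0.21 (adjusted p = 0.481). Csgalnact2 (ENSRNOG00000014713) was at 46.4, 44.9, 51.7 and 43.0 CPM in flexor, 57.5, 51.6, 45.8 and 44.1 CPM in supraspinatus, 28.5, 44.6, 39.9 and 51.3 CPM in Achilles and 24.2, 26.6, 34.3 and 31.9 CPM in patellar libraries. The patellar libraries lay below all flexor and supraspinatus libraries and overlapped Achilles 1. It was higher than in patellar tendon in flexor (0.67 ± 0.16, adjusted p = 0.00297) and supraspinatus tendon (0.77 ± 0.16, adjusted p = 9.81e-04), and both calls were lost with the muscle covariate at 0.52 and 0.51 (adjusted p = 0.114 and 0.326).

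Chpf2 (ENSRNOG00000010466), a chondroitin polymerising factor, was the 1 member higher in Achilles than in each other tendon (0.773% of all genes). It was at 99.6, 106, 84.2 and 89.9 CPM in Achilles libraries, with 54.7, 64.2, 70.4 and 51.9 CPM in flexor, 62.1, 74.5, 60.8 and 50.9 CPM in supraspinatus and 63.1, 63.0, 67.5 and 69.5 CPM in patellar libraries. The Achilles libraries lay above all others. Chpf2 was lower than in Achilles tendon in flexor (-0.66 ± 0.12, adjusted p = 5.51e-04) and supraspinatus (-0.61 ± 0.12, adjusted p = 7.79e-04), and higher in Achilles than in patellar tendon (0.53 ± 0.12, adjusted p = 0.0237). The last call was lost without Achilles 2, patellar 2 or patellar 3, with log2 values from 0.48 to 0.55. The supraspinatus call was lost with the muscle covariate at -0.45 (adjusted p = 0.198). Chpf had tendon means between 100.1 and 157 CPM and was called in no comparison. Chsy1 had tendon means between 7.33 and 10.1 CPM and was lower in supraspinatus than in Achilles tendon (-0.47 ± 0.15, adjusted p = 0.018). This call was lost without Achilles 4, and with the muscle covariate at -0.77 (adjusted p = 0.0712). Chsy3 averaged 9.37 ± 3.51 CPM in flexor, against 3.95 ± 2.02 CPM in patellar tendon (1.24 ± 0.43, adjusted p = 0.0263), a call lost without flexor 3, patellar 1 or patellar 2.

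Among the sulfotransferases of chondroitin sulfate, the 6-O-sulfotransferases Chst3 and Chst7 peaked in different tendons. Chst3 (ENSRNOG00000000572) was at 47.3, 45.7, 49.3 and 39.2 CPM in supraspinatus libraries, with 18.2, 19.7, 29.0 and 19.7 CPM in flexor, 15.4, 21.0, 16.2 and 22.7 CPM in Achilles and 40.3, 14.1, 24.7 and 23.2 CPM in patellar libraries. Patellar 1 fell within the supraspinatus range and every other library lay below it. Chst3 was lower in flexor than in supraspinatus tendon (-1.07 ± 0.25, adjusted p = 0.00275), and higher in supraspinatus than in Achilles (1.27 ± 0.25, adjusted p = 7.57e-04) and patellar tendon (0.83 ± 0.25, adjusted p = 0.0112). With the muscle covariate the Achilles and patellar calls were lost at 0.72 and 0.22 (adjusted p = 0.276 and 0.762), and the patellar call also with library totals at 0.41 (adjusted p = 0.162). Chondrocyte markers took 0.0603 to 0.507% of the TMM-adjusted total in supraspinatus libraries against 0.0285 to 0.133% in the other tendons, and these ranges overlapped. Supraspinatus 3, with the most Chst3, had the lowest share of its tendon. The median marker was at 9.77, 13.1, 0.963 and 1.49 CPM in supraspinatus libraries and at 6.81, 5.21, 2.54 and 6.92 CPM in flexor libraries. In 12 libraries 1 of 13 markers was at 0, and the part of these markers was not tested. Chst7 (ENSRNOG00000004258) was at 6.11, 6.82, 4.33 and 5.06 CPM in flexor, 3.46, 5.16, 7.21 and 4.48 CPM in supraspinatus, 6.50, 9.61, 11.1 and 13.7 CPM in Achilles and 11.54, 19.5, 16.5 and 17.2 CPM in patellar libraries. All patellar libraries lay above all flexor and supraspinatus libraries and overlapped the Achilles libraries. Chst7 fell in flexor by 0.87 against Achilles (adjusted p = 0.011) and by 1.54 against patellar tendon (adjusted p = 2.01e-04), and in supraspinatus by 1.01 and 1.67 against the same tendons on the log2 scale (adjusted p = 0.00432 and 8.97e-05). The supraspinatus and Achilles call was lost with the muscle covariate at -1.29 (adjusted p = 0.0891). The adipocyte and endothelial markers given above were also higher in the hindlimb tendons, and their part was not tested.

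The 4-O-sulfotransferases are Chst11, Chst12 and Chst13. Chst11 averaged 1.23 ± 0.0647 CPM in flexor, against 0.639 ± 0.238 in supraspinatus, 0.534 ± 0.0826 in Achilles and 0.628 ± 0.150 in patellar libraries. Every flexor library lay above all others, and the flexor level was higher by 0.94 ± 0.27, 1.20 ± 0.28 and 0.97 ± 0.27 (adjusted p = 0.0114, 0.00254 and 0.00907), the first being lost with the muscle covariate at 0.64 (adjusted p = 0.132). Chst12 averaged 115 ± 23.4 CPM in flexor, against 87.6 ± 16.9 in supraspinatus, 87.2 ± 6.68 in Achilles and 76.3 ± 6.75 in patellar libraries. Its flexor libraries overlapped the supraspinatus and Achilles libraries, and those calls lay close to the threshold: the supraspinatus call (0.39 ± 0.15) was lost without any 1 of 12 libraries and the Achilles call (0.40 ± 0.15) without any 1 of 11, with flexor 3 the most influential (adjusted p = 0.270 and 0.209 without it). Chst13 was near the floor in the forelimb tendons, with 3, 0, 1 and 3 counts in flexor and 0, 0, 1 and 0 counts in supraspinatus libraries. It had 8, 18, 37 and 20 counts in Achilles and 12, 15, 23 and 20 counts in patellar libraries. Every forelimb library lay below every hindlimb library. Chst13 passed the filter on low counts only through the hindlimb tendons, so its calls are no result, although they stand in the counts of members called.

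Chst15 (ENSRNOG00000016267), which adds a second sulfate to 4-O-sulfated residues and so makes chondroitin sulfate E, had a smaller p than Chst11 and Chst12 in each flexor comparison. It was at 39.4, 42.9, 65.0 and 44.9 CPM in flexor libraries, against 27.2, 24.2, 27.4 and 20.1 CPM in supraspinatus, 18.7, 18.3, 14.8 and 16.8 CPM in Achilles and 20.5, 13.2, 11.1 and 15.1 CPM in patellar libraries. The flexor libraries did not overlap the others. Chst15 rose in flexor by 0.96 ± 0.19, 1.48 ± 0.19 and 1.68 ± 0.19 against supraspinatus, Achilles and patellar tendon (adjusted p = 7.74e-04, 2.69e-05 and 8.29e-06), and these calls remained with the muscle covariate. Its supraspinatus level was higher than in Achilles (0.53 ± 0.19) and patellar tendon (0.72 ± 0.19), calls lost with library totals at 0.12 and 0.31 and with the muscle covariate at 0.40 and 0.59. Ust (ENSRNOG00000016381), the uronyl 2-O-sulfotransferase of chondroitin and dermatan sulfate, was at 7.31, 9.44, 8.48 and 7.79 CPM in flexor, 3.62, 3.62, 3.34 and 1.70 CPM in supraspinatus, 3.48, 6.66, 6.99 and 9.40 CPM in Achilles and 3.34, 12.5, 15.3 and 15.1 CPM in patellar libraries. Achilles 1 and patellar 1 fell within the supraspinatus range, and the other Achilles and patellar libraries lay well above it. Ust was higher in flexor than in supraspinatus tendon (1.43 ± 0.40, adjusted p = 0.00894), and lower in supraspinatus than in Achilles (-1.11 ± 0.40, adjusted p = 0.0314) and patellar tendon (-1.91 ± 0.41, adjusted p = 0.00115). The 3 calls were lost with the muscle covariate at 1.33, -0.92 and -1.65 (adjusted p = 0.0665, 0.468 and 0.278), and the Achilles call also without supraspinatus 3 or 4, or Achilles 2, 3 or 4 (adjusted p from 0.0517 to 0.0942).

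Of the dermatan sulfate genes, Dse and Chst14 did not pass in any comparison. Dse and Dsel encode the epimerases that make iduronic acid in dermatan sulfate, and Chst14 its 4-O-sulfotransferase. Dse averaged 141 ± 21.8 CPM in flexor, 158 ± 47.4 in supraspinatus, 183 ± 30.6 in Achilles and 169 ± 28.6 in patellar libraries, and Chst14 24.2 ± 8.01, 24.6 ± 5.99, 28.4 ± 3.08 and 29.4 ± 3.83 CPM. Neither passed among the 4 tendons (adjusted p = 0.391 and 0.487). Dsel averaged 31.2 ± 4.12 CPM in flexor, 24.9 ± 2.77 in supraspinatus, 32.1 ± 1.79 in Achilles and 25.7 ± 2.68 in patellar libraries, and its widest difference was supraspinatus against Achilles (-0.36 ± 0.11, adjusted p = 0.0127). Dsel lost this call with the muscle covariate, at -0.15 (adjusted p = 0.643). Its 2 flexor calls, against supraspinatus (0.32 ± 0.11) and patellar tendon (0.28 ± 0.11), were lost without any 1 of 8 and of 12 libraries, at adjusted p up to 0.173 and 0.224.

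**Figure D3:**
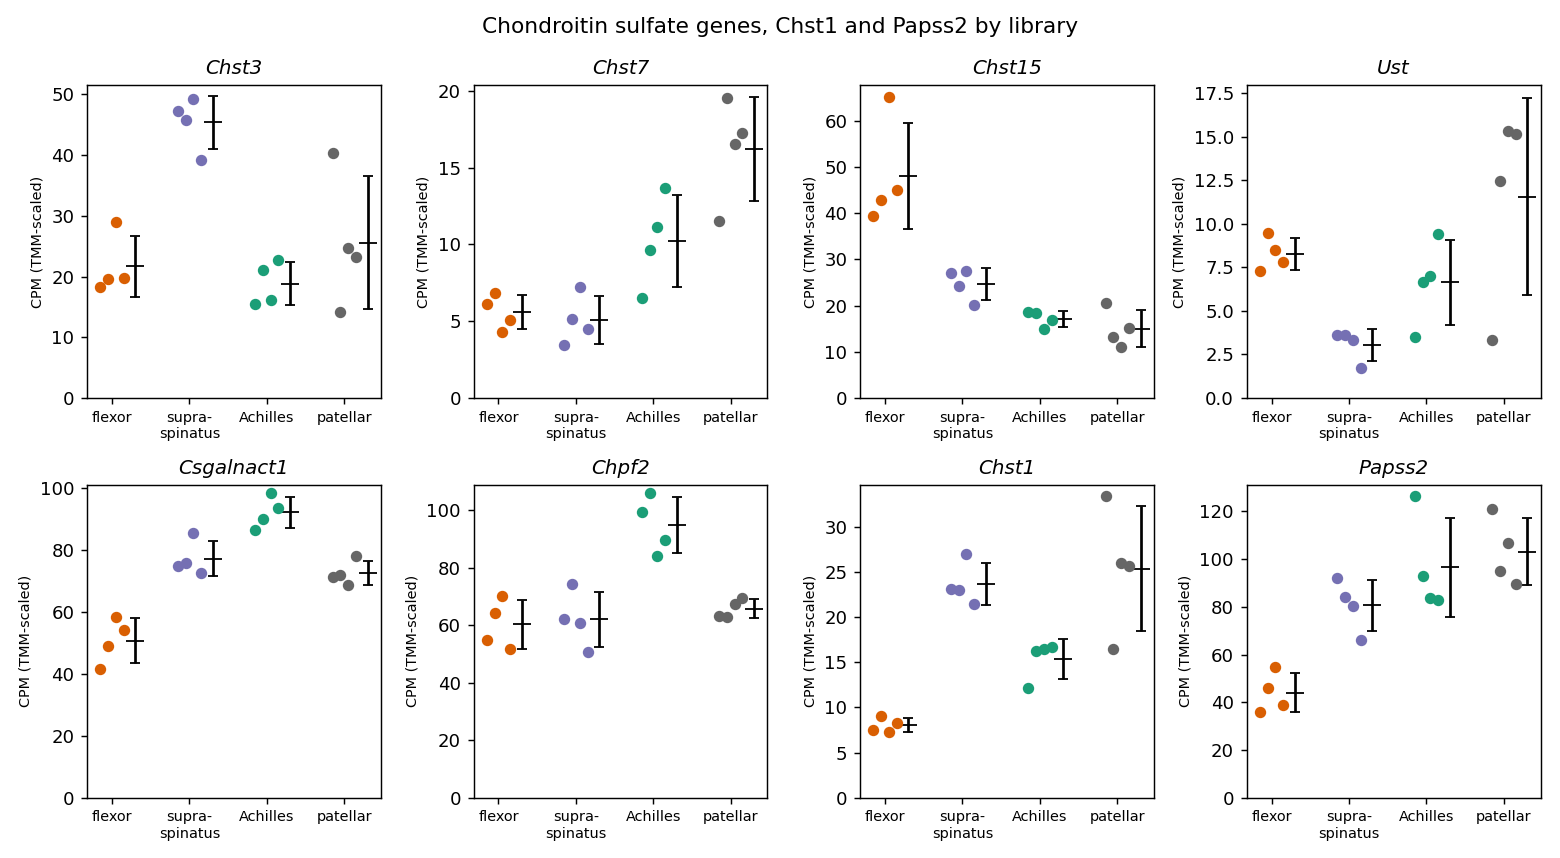
CPM of 6 chondroitin sulfate members, Chst1 and Papss2 in each library (points), with the mean and SD of the 4 libraries beside them (bar and whiskers), for flexor, supraspinatus, Achilles and patellar tendon from left to right. Chst15 is highest in flexor, Chst3 in supraspinatus, Chpf2 in Achilles and Chst7 in patellar tendon, and flexor tendon is lowest for Csgalnact1, Chst1 and Papss2.

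Chst1 (ENSRNOG00000007989), the galactose 6-O-sulfotransferase of keratan sulfate, was lowest in flexor tendon. It was at 7.54, 9.02, 7.31 and 8.32 CPM in flexor libraries, against 23.2, 23.0, 26.9 and 21.5 CPM in supraspinatus, 12.1, 16.3, 16.5 and 16.6 CPM in Achilles and 33.4, 16.4, 26.0 and 25.7 CPM in patellar libraries. All flexor libraries lay below all others, and Achilles 1 was the lowest of the rest. Chst1 fell in flexor by 1.56, 0.93 and 1.66 against supraspinatus, Achilles and patellar tendon on the log2 scale (adjusted p = 1.05e-05, 5.48e-04 and 4.50e-06). Supraspinatus exceeded Achilles tendon (0.62 ± 0.17, adjusted p = 0.00775), a call lost with library totals at 0.21 and with the muscle covariate at 0.12. Chst1 was also lower in Achilles than in patellar tendon (-0.72 ± 0.17, adjusted p = 0.028), a call lost without any 1 of 5 libraries (Achilles 1, 2 or 3, or patellar 3 or 4) and with the replicate block (-0.71, adjusted p = 0.0543). Chst2, an N-acetylglucosamine 6-O-sulfotransferase, averaged 1.46 ± 0.420 CPM in flexor, 0.752 ± 0.165 in supraspinatus, 1.27 ± 0.0800 in Achilles and 0.755 ± 0.293 in patellar libraries. Its higher flexor level against supraspinatus and patellar tendon was lost without flexor 4 (adjusted p = 0.0670 and 0.0579), and its lower supraspinatus level against Achilles tendon (-0.76 ± 0.29) without any 1 of 10 libraries. The muscle covariate also ended the last of these calls, at -0.94 (adjusted p = 0.276).

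The medians of the 2 branches lay farther apart in the flexor comparisons than in the other 3, though flexor against supraspinatus tendon hardly exceeded Achilles against patellar tendon. The median log2 fold change of the 14 tested heparan sulfate members was 0.80 against supraspinatus, 0.63 against Achilles and 0.62 against patellar tendon. The median of the 16 chondroitin and dermatan sulfate members was 0.34, -0.07 and -0.04 in the same comparisons, and the median of all genes tested was -0.03, -0.01 and 0.03. Without Ndst3 and Chst13, whose fitted values rest on few counts, the heparan sulfate medians were 0.74, 0.83 and 0.64 and the chondroitin and dermatan sulfate medians 0.32, -0.04 and 0.04, so that the last of these turned sign around 0. In supraspinatus against Achilles tendon the medians were 0.02 (0.14 without Ndst3) for heparan sulfate and -0.23 (-0.21 without Chst13) for chondroitin and dermatan sulfate members. Against patellar tendon they were -0.30 and -0.07 (-0.28 and -0.05 without these genes). In Achilles against patellar tendon they were -0.21 and 0.19 (-0.20 and 0.20). The last 2 lay nearly as far apart as 0.74 and 0.32 in flexor against supraspinatus tendon.

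**Figure D4:**
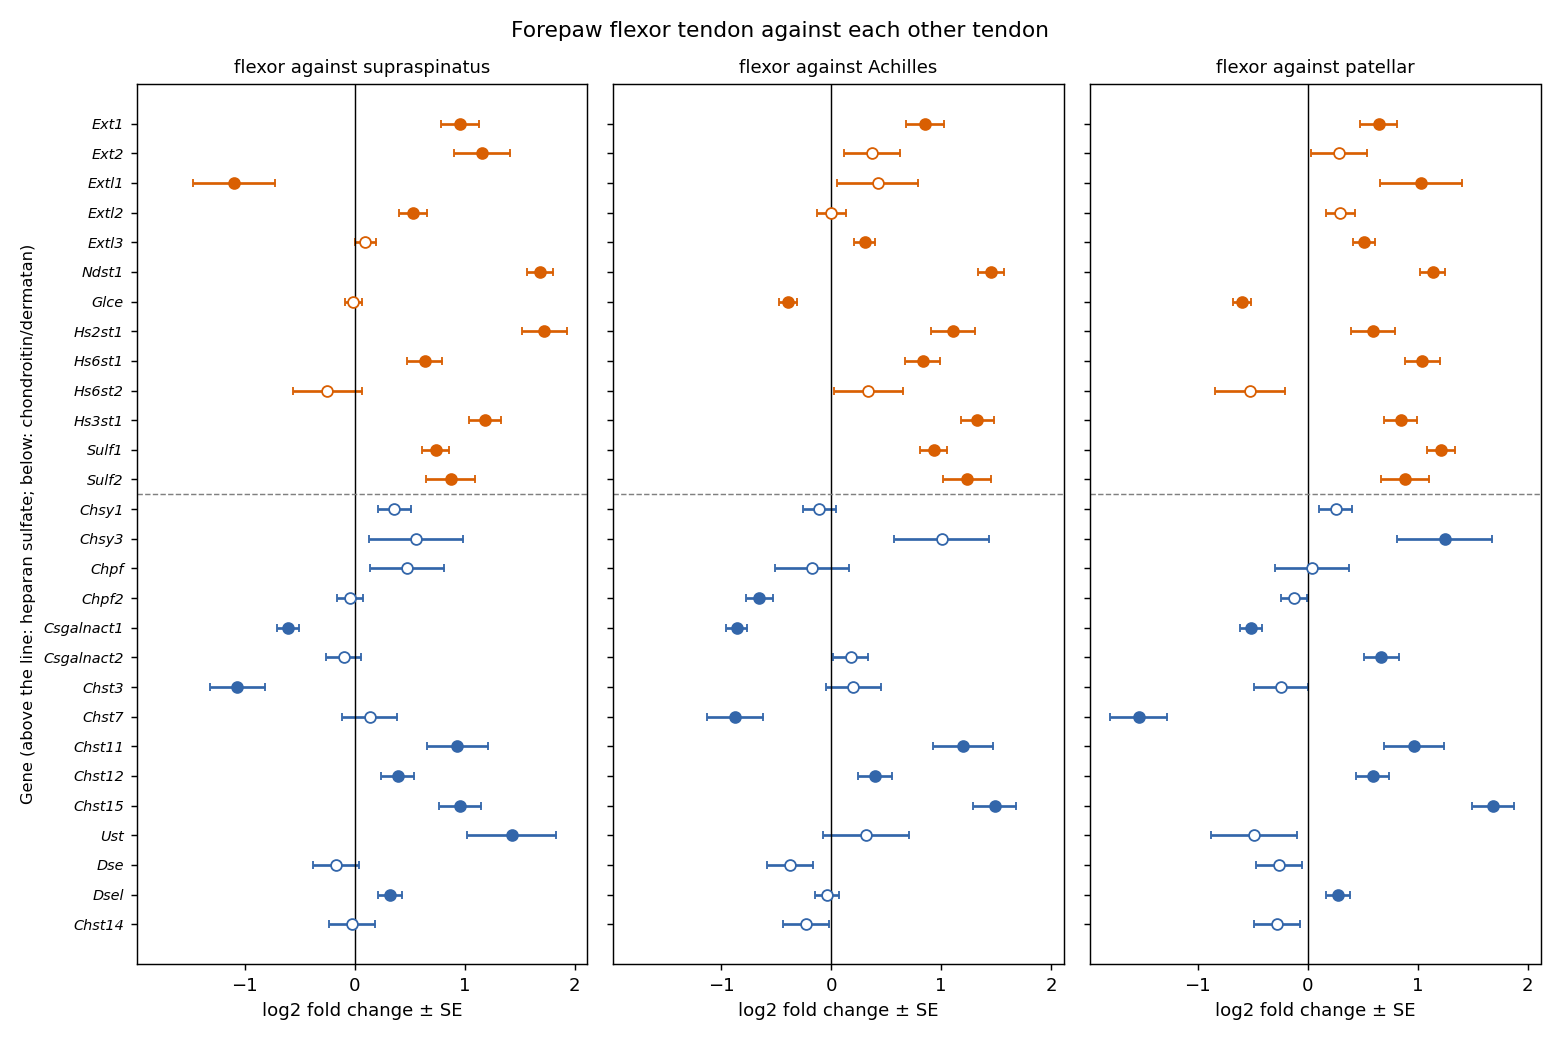
Log2 fold change ± SE of flexor against supraspinatus, Achilles and patellar tendon for 13 heparan sulfate members (orange, above the dashed line) and 15 chondroitin and dermatan sulfate members (blue, below it); filled points passed the test, and Ndst3 and Chst13 are left out for low counts. Ext1, Ndst1, Hs2st1, Hs6st1, Hs3st1, Sulf1 and Sulf2 are filled and right of 0 in all 3 panels, and the chondroitin and dermatan sulfate members lie on both sides.

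A level per library, the mean log2 deviation of a branch's members from their mean over the 4 tendons, was set beside these medians. For heparan sulfate it was 0.50, 0.51, 0.41 and 0.44 in the flexor libraries. It lay between -0.34 and -0.15 in supraspinatus, between -0.25 and -0.04 in Achilles and between -0.27 and 0.15 in patellar libraries, so that the flexor libraries did not overlap the others. For chondroitin and dermatan sulfate it lay between -0.09 and 0.27 in flexor, between -0.55 and -0.09 in supraspinatus, between -0.21 and 0.35 in Achilles and between -0.17 and 0.27 in patellar libraries, and all 4 tendons overlapped. The heparan sulfate level minus the chondroitin and dermatan sulfate level averaged 0.41 ± 0.20 in flexor, -0.05 ± 0.30 in supraspinatus, -0.25 ± 0.30 in Achilles and -0.11 ± 0.27 in patellar tendon (SD). The highest values outside flexor tendon were 0.40 in supraspinatus 4, 0.18 in Achilles 1 and 0.16 in patellar 1, which overlapped the flexor range of 0.14 to 0.59, and the lowest were -0.52 in Achilles 4 and -0.47 in patellar 3. A level over chosen members has no test here.

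**Figure D5:**
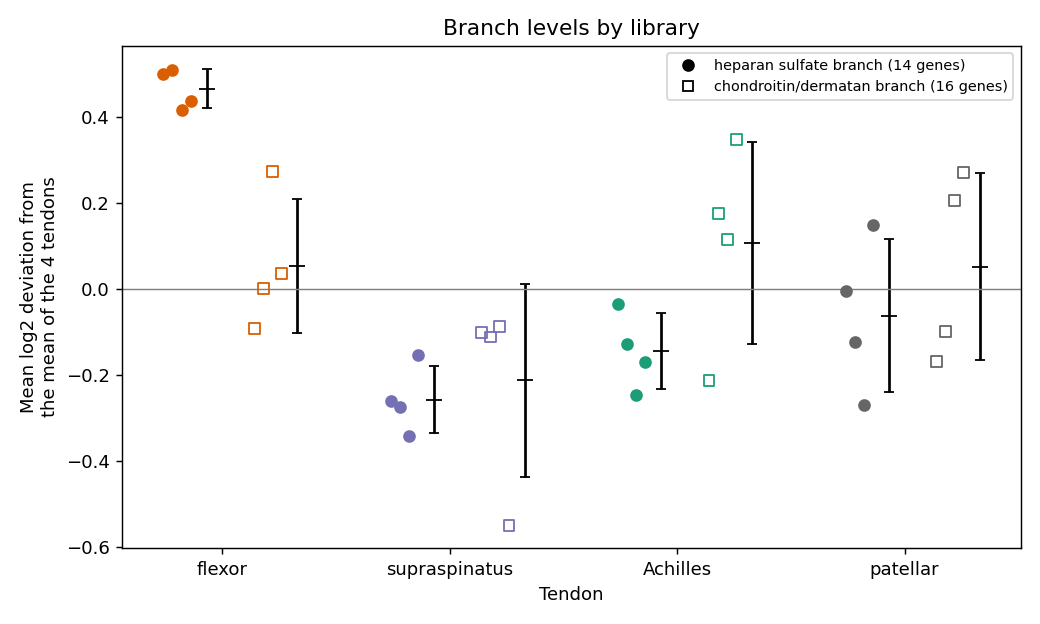
Mean log2 deviation of the 14 tested heparan sulfate members (filled circles) and the 16 chondroitin and dermatan sulfate members (open squares) from their mean over the 4 tendons, 1 point per library, with mean and SD beside them. The filled flexor points lie between 0.41 and 0.51, above every other filled point, and the open squares of all tendons overlap.

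By comparison, 24 of 40 members differed between flexor and supraspinatus tendon (17 higher and 7 lower in flexor; 47.7% of all genes differed), 21 between flexor and Achilles (12 and 9; 47.7%) and 25 between flexor and patellar tendon (18 and 7; 50.5%). Higher calls made up 23.4, 24.1 and 25.8% of all genes and lower calls 24.3, 23.5 and 24.7% in the same comparisons. Between supraspinatus and Achilles tendon 18 members differed (5 higher and 13 lower in supraspinatus; 50.1% of all genes, 24.7% higher and 25.4% lower). Between supraspinatus and patellar tendon 17 differed (8 and 9; 56.4% of all genes, 27.5% and 28.8%). These supraspinatus splits depended on the scaling, since library totals without TMM moved the all-gene median by 0.34 (flexor against supraspinatus) and by -0.41 (supraspinatus against Achilles, and against patellar). They gave 23 higher and 3 lower members in flexor against supraspinatus, 3 and 24 in supraspinatus against Achilles, and 1 and 23 in supraspinatus against patellar tendon. With the muscle marker level as a covariate 2 members were called in each of the supraspinatus and hindlimb comparisons. Against Achilles tendon Chst13, whose calls are no result, was the only call of the main model that remained. Against patellar tendon only Chst7 and Chst13 remained. Calls over all genes fell as well, from 8497 to 1980 against Achilles and from 9555 to 2183 against patellar tendon. Without Achilles 4, supraspinatus against Achilles tendon called 11 members. Over all genes this comparison called 7601 to 8826 without single libraries.

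Between the Achilles and patellar tendons only 3 of 40 members were called, B4galt7 (0.38 ± 0.08) and Chpf2 higher and Chst1 lower in Achilles, against 5.16% of all genes (3.10% higher and 2.06% lower). Leaving out 1 library at a time moved this count between 0 (without Achilles 2) and 6 (without patellar 1), with 5 called without flexor 3, 1 without patellar 2 and 1 without patellar 3. The count over all genes moved between 342 and 1415 without the same libraries, Achilles 2 and patellar 1. Supraspinatus tendon was higher than each other tendon for Chst3 and Extl1 (2 of 40, 13.9% of all genes) and lower for Ust, Ext2 and Hs2st1 (3 of 40, 8.14% of all genes). No member was called lower in Achilles or higher or lower in patellar tendon than in each other tendon (0.236%, 1.17% and 1.45% of all genes).

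Of 7 tested other heparan sulfate enzymes, 4 were called higher and 0 lower in flexor than in supraspinatus tendon (23.4% and 24.3% of all genes). The counts were the same against Achilles (24.1% and 23.5%) and patellar tendon (25.8% and 24.7%). Hs3st3a1 and Hs3st3b1 were higher in flexor than in each other tendon (10.9% of all genes). Hs3st3b1, a 3-O-sulfotransferase, was at 3.21, 2.80, 3.70 and 2.63 CPM in flexor libraries, against 0.454, 0.433, 0.0977 and 0.0485 CPM in supraspinatus, 0.115, 0.217, 0.423 and 0.345 CPM in Achilles and 0.547, 0.851, 1.003 and 1.78 CPM in patellar libraries. No flexor library overlapped the others. It was chosen as the example after its values were seen. Ndst4 and Hs3st2, also among these calls, rest on libraries of 0 to few counts. The counts of 4 and 0 above include them and are therefore no result on direction.

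Of 12 tested heparan sulfate core proteins, Sdc3, Sdc4 and Gpc1 were higher in flexor than in each other tendon (10.9% of all genes) and Col18a1 was lower (6.6%). Gpc1, the glypican of the cell surface, was at 505, 490.3, 413 and 413 CPM in flexor libraries, against 144, 127, 133 and 146 CPM in supraspinatus, 43.6, 70.6, 78.3 and 146 CPM in Achilles and 35.8, 44.1, 81.3 and 101 CPM in patellar libraries. Its flexor libraries stood clear of all others, and it was higher by 1.73 ± 0.34, 2.43 ± 0.35 and 2.80 ± 0.36 (adjusted p = 8.02e-04, 7.00e-05 and 1.96e-05). Sdc3, a syndecan, averaged 53.1 ± 6.97 CPM in flexor, 10.5 ± 2.09 in supraspinatus, 17.3 ± 3.36 in Achilles and 23.1 ± 9.74 in patellar libraries. Agrn, the agrin of the neuromuscular junction, averaged 80.7 ± 14.3 CPM in flexor, 45.4 ± 2.75 in supraspinatus, 84.8 ± 19.7 in Achilles and 124 ± 14.6 in patellar libraries, and was lower in supraspinatus than in each of the others. Col18a1, the collagen XVIII of basement membranes, averaged 88.0 ± 24.8 CPM in flexor, 162 ± 42.9 in supraspinatus, 428 ± 73.9 in Achilles and 493 ± 50.4 in patellar libraries, the same order as the endothelial markers, whose part was not tested.

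Of 14 tested chondroitin and dermatan sulfate core proteins, 12 differed among the 4 tendons (75.6% of all genes), which is near the background. Only Dcn, decorin, was higher in flexor than in each other tendon (10.9% of all genes), while Esm1 and Srgn were lower (6.6%). Vcan, versican, averaged 321 ± 70.4 CPM in flexor, 553 ± 121 in supraspinatus, 79.7 ± 13.2 in Achilles and 92.3 ± 39.0 in patellar libraries, high in both forelimb tendons. Cspg4 had the same order of limbs, with 362 ± 49.7 CPM in flexor and 328 ± 33.9 in supraspinatus, and 139 ± 8.05 in Achilles and 145 ± 38.4 in patellar libraries. Cd44, the hyaluronan receptor, averaged 179 ± 15.5, 191 ± 32.1, 103 ± 11.03 and 63.3 ± 10.7 CPM in flexor, supraspinatus, Achilles and patellar tendon. Esm1, an endothelial proteoglycan, averaged 2.43 ± 0.517 CPM in flexor, against 27.1 ± 4.46 in supraspinatus, 10.9 ± 6.04 in Achilles and 15.8 ± 1.45 in patellar libraries.

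Among 7 tested keratan sulfate partners, B3gnt2 and St3gal3 were higher in flexor than in each other tendon (10.9% of all genes), the reverse of Chst1. B3gnt2, an N-acetylglucosaminyltransferase of poly-N-acetyllactosamine, averaged 73.0 ± 5.76 CPM in flexor, against 10.6 ± 0.971 in supraspinatus, 15.9 ± 5.99 in Achilles and 22.8 ± 11.1 in patellar libraries. St3gal3, a sialyltransferase, averaged 12 ± 1.40 CPM in flexor, against 3.97 ± 1.19, 3.26 ± 0.939 and 4.36 ± 1.51 CPM in supraspinatus, Achilles and patellar tendon. B4galt1 was higher in flexor than in supraspinatus and Achilles tendon (1.29 ± 0.21 and 0.92 ± 0.20), and B3gnt7, which makes corneal keratan sulfate, was lower in flexor than in Achilles and patellar tendon (-0.88 ± 0.28 and -1.39 ± 0.29). Of the 4 tested keratan sulfate core proteins, Fmod, Kera and Prelp differed among the tendons (75.6% of all genes). Prelp averaged 3154.5 ± 868 CPM in flexor and 3830.0 ± 382 in supraspinatus, and 970.3 ± 131 in Achilles and 797 ± 199 in patellar libraries.

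The suppliers of nucleotide sugars held no gene higher in flexor than in each other tendon (0 of 17, against 10.9% of all genes). Uxs1, which was lower in flexor than in each and makes the UDP-xylose that Xylt1 uses, averaged 51.9 ± 1.12 CPM in flexor, against 63.1 ± 6.596 in supraspinatus, 85.2 ± 5.02 in Achilles and 72.0 ± 3.94 in patellar libraries. Its log2 fold change in flexor was -0.28 ± 0.08, -0.71 ± 0.08 and -0.47 ± 0.08 against supraspinatus, Achilles and patellar tendon, opposite in sign to Xylt1. Pxylp1, the phosphatase that releases the linker for lengthening, averaged 93.9 ± 23.1 CPM in flexor, 75.9 ± 14.1 in supraspinatus, 54.4 ± 8.503 in Achilles and 32.2 ± 4.66 in patellar libraries. Ugp2 and Gfpt1, which make UDP-glucose and glucosamine phosphate, were highest in supraspinatus tendon at 515 ± 94.1 and 256 ± 32.6 CPM, against 146 ± 14.6 and 121 ± 12.9 CPM in Achilles tendon. Of 10 tested lysosomal enzymes of glycosaminoglycan breakdown, Ids was higher in flexor than in each other tendon (10.9% of all genes) and Hexa lower (6.6%). Ids, which removes 2-O-sulfate, averaged 124 ± 5.60 CPM in flexor, 95.9 ± 7.62 in supraspinatus, 62.3 ± 7.24 in Achilles and 69.7 ± 13.4 in patellar libraries. Idua, Gusb and Naglu differed among the tendons without a common direction, Idua being highest in flexor (149.8 ± 45.7 CPM) and Gusb and Naglu in Achilles tendon (68.6 ± 8.85 and 80.1 ± 8.08 CPM).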

How the data were processed

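RNA-seq libraries of 4 rat tendons were compared, 4 libraries each. The authors deposited raw counts per gene for every library in 1 table. Per the labels' protocols, total RNA was purified with DNase treatment before Illumina sequencing. Per the submitters' processing notes, the tools were FastQC, HISAT2 and edgeR and the genome build rn6, while the sources used here name no versions, counting tool or strand setting. Without the strand setting, reads of overlapping antisense genes cannot be told apart. The authors' own edgeR comparison table was not used here.

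The deposited counts were tested with edgeR 4.0.16 (limma 3.58.1, R 4.3.3). Genes were kept by filterByExpr (minimum count 10, minimum total count 15), scaled by TMM, and fitted with 1 coefficient per tendon over 16 libraries (12 residual degrees of freedom). Adjustment was by Benjamini-Hochberg over 16948 genes within each comparison, at 0.05. SE is the log2 fold change divided by the square root of F. The floor of 3 counts covers counting error only. The script was tested on simulated data. Alternatives were DESeq2 1.42.0, limma-voom, other scalings and filters, a replicate block, a muscle marker covariate, each pair alone and leaving out libraries.

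The members and lists were chosen with earlier results of these data known. Full statistics went to members that differed among the tendons with at least 5 CPM in the highest tendon: up to 20 by spread and up to 10 by smallest adjusted p, which gave 20 of 29 eligible. Of each other pathway list up to 4 genes were named by smallest adjusted p, at the same minimum level. Other members are given by level, and other genes named in counts of 5 or fewer were chosen after their values were seen. Of 82 pathway symbols 75 matched the table, and of 113 marker symbols 106.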

Additional observations from a re-analysis of the deposited data

Results flagged for a closer look

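Within the 4 libraries of a tendon, a value was marked when its gap to the nearest of the others, divided by the whole range, exceeded Dixon's 95% critical value for 4 samples. Of 160 groups of 4 libraries, 9 were marked, and chance marks about 1 in 20 groups, which is 8 here. Of the 9 values, 3 came from supraspinatus 4 and 2 from Achilles 1.

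In supraspinatus 4, B3galt6 was at 9.628 CPM (13.2 to 13.47 CPM in the other supraspinatus libraries), Ust at 1.699 CPM (3.335 to 3.616 CPM) and Ndst3 at 0.1456 CPM (0.01273 to 0.02452 CPM). In Achilles 1, Chst1 was at 12.11 CPM (16.27 to 16.65 CPM in the other Achilles libraries) and Ndst3 at 0.5227 CPM (0.1447 to 0.1915 CPM). Among flexor libraries, Chst2 was at 2.092 CPM in flexor 4 (1.235 to 1.29 CPM in the others), Chst3 at 29.03 CPM in flexor 3 (18.2 to 19.69 CPM) and Glce at 79.52 CPM in flexor 2 (69.01 to 70.49 CPM). Chst13 was at 0.01395 CPM in supraspinatus 3, which is 1 count, and at 0 in the other supraspinatus libraries.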

How the results depend on the processing

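Of 108 called differences between tendons, 108 kept their call and direction with DESeq2 or median-of-ratios factors, 104 with limma-voom, 103 with no filter, 92 with library totals and 62 with the muscle covariate. Leaving out 1 library at a time ended 25 of them under at least 1 omission and reversed 0. Library totals turned Extl3 (-0.0085) and Hs6st1 (-0.028) in supraspinatus against patellar tendon, and the muscle covariate turned Hs6st1 (-0.10). Without Achilles 1 and patellar 1 together, 99 calls remained. The cause was not tested for any of these changes.

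The count of members higher in flexor than in each other tendon, 11, was 7 with the muscle covariate and 9 to 11 without single libraries. That of chondroitin and dermatan sulfate members, 3, was 1 with the stricter filter and 1 with the covariate. The count lower in flexor, 4, was 2 with library totals. The covariate gave 2 calls in supraspinatus against Achilles and 2 against patellar tendon, where it left 1980 and 2183 over all genes. Both comparisons include Chst13, whose calls are no result. Achilles against patellar tendon gave 7 calls with DESeq2 and 0 to 6 without single libraries (342 to 1415 over all genes), and supraspinatus against Achilles 11 to 18 (7601 to 8826). The heparan sulfate level with library totals was 0.51 in flexor, -0.55 in supraspinatus and -0.026 in Achilles tendon, and the chondroitin and dermatan sulfate level -0.49 in supraspinatus. Over members of at least 5 CPM, a choice made after seeing the data, the heparan sulfate level was 0.53 in flexor tendon.

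Of 24 correlations between the deviations of libraries that share a number, 9 exceeded 0.1 (median 0.03), against 10 of 72 between different numbers (median -0.01). In no comparison of tendons did all 4 same-number pairs exceed 0.1, flexor and supraspinatus coming closest at 0.083, 0.14, 0.17 and 0.26. The sample titles end in Rat and a number and do not say whether it marks 1 animal across tendons. Pairing is thus not settled, and the main model did not use it. With the number as a replicate block, 105 of 108 calls remained and 11 members were higher in flexor than in each other tendon. The block ended Ust in supraspinatus against Achilles (adjusted p = 0.0531), Dsel in flexor against patellar (0.0691) and Chst1 in Achilles against patellar tendon (0.0543). Members under 1 CPM are limited by depth, and 4 libraries a tendon limit the rest.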
